A study of Homo sapiens with 12 samples.

Results

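Fusing PUM2 to a deaminase domain was compared with the same deaminase domain alone, in 3 libraries against 3 libraries. They were chosen by sample title from the 12 libraries of the series. In RBPscan a reporter mRNA carries, in its 3′ UTR, a short RNA element next to a hairpin (the recorder), and sequencing shows how many adenosines of the hairpin a deaminase has edited. The cells were wild-type HEK293T, a human embryonic kidney line, and all of them carried the recorder library. The first group expressed human PUM2 joined to ADARcdMUT, a mutated catalytic domain of the RNA editing enzyme ADAR, at 250 ng. The second group expressed ADARcdMUT without PUM2, at 1000 ng. The series states that doxycycline, a drug that switches on engineered promoters, induced the fusion. The sources used here do not say whether it was added to the ADARcdMUT cells, which substance the amounts weigh or how much protein each construct gave, so the effects of construct and amount cannot be told apart. The other 6 libraries, the fusion without induction and at 25 ng, entered the fits and are quoted as background.

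PUM2 is a Pumilio-family protein whose repeats each contact a base of single-stranded RNA, and it is known for binding the Pumilio response element UGUANAUA in 3′ UTRs and lowering the stability and translation of those mRNAs. In the fusion, binding to an element brings the deaminase next to the recorder. ADAR turns adenosine into inosine, which is read as G, so edits appear as A-to-G changes.

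The library held 1005 elements of 8 bases, and an entry named EMPTY, in all 12 libraries. By design there were 4 forms of the consensus TGTANATA (DNA letters, N being any base), all 84 elements with 1 of its 7 fixed positions changed, all 756 with 2 changed, 88 that match the consensus read backwards (ATANATGT) with 1 mismatch or none, and 73 others. The elements that the results turn on are printed 5′ to 3′, with positions counted from 1 at the 5′ end. The first block shows the 4 consensus forms and the 6 substituted forms that gained most, with capitals for the bases that match a fixed consensus position.
consensus with T at position 5: TGTAtATA
consensus with C at position 5: TGTAcATA
consensus with A at position 5: TGTAaATA
consensus with G at position 5: TGTAgATA
T7G and A8G: TGTAcAgg
A8T beside T at position 5: TGTAtATt
T7G and A8T: TGTAcAgt
A8T beside A at position 5: TGTAaATt
A8T beside C at position 5: TGTAcATt
T7G beside T at position 5: TGTAtAgA

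The second block shows, for each later start of the core TGTA, the element that gained most, with the core in capitals. They are shown because a shifted core keeps the bases but loses the register of the consensus.
core from position 2: aTGTAtag
core from position 3: tcTGTAta
core from position 4: aaaTGTAt
core from position 5: ggtaTGTA

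The third block shows the 5 elements that gained least relative to the rest, with capitals again for matches to the consensus at its own register. The 3 written with at most 1 capital belong to the reversed family.
reversed family, lowest of all: atatgtgt
reversed family: atTgatgt
T3G: TGgAtATA
reversed family: atacgtgt
G2A and T3G: TagAgATA

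The 6 libraries held 11235321 to 25127959 reads each. The median element had 14260 to 23829 reads in the fusion libraries and 10218 to 11973 in the ADARcdMUT libraries, and the lowest count of any element was 1091. For the share of reads edited, the median binomial standard error per element was 0.270 to 0.352 percentage points with the fusion and 0.230 to 0.260 with ADARcdMUT. Editing level means the edited percent of the 7 adenosines of the recorder, taken over an element's reads. It is the product of how many reads carry any edit and how many edits such a read carries, divided by 7, and these factors were measured separately.

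Every element was edited more with the fusion. The median editing level over the 8-base elements was 7.78%, 7.87% and 7.97% in the 3 fusion libraries and 2.06%, 1.96% and 1.82% in the 3 ADARcdMUT libraries. The groups did not overlap, and the means were 7.87% ± 0.0992 (SD, n = 3) and 1.95% ± 0.120, which is 4.05-fold. The non-induced fusion stood at 1.82% ± 0.0991. Element by element the separation was complete. The lowest fusion value of any element in any library was 5.47% and the highest ADARcdMUT value was 3.56%. The gain of an element ranged from 4.15 to 12.3 percentage points and its fold from 2.83 to 8.66, with a median of 4.06. In limma all 1006 entries were higher and 0 lower, a background of 100% and 0%, and 0 were lower at an unadjusted p under 0.05.

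Both parts of the editing level rose. The median share of reads with at least 1 edit was 21.8%, 22.4% and 22.6% with the fusion and 7.54%, 7.12% and 6.87% with ADARcdMUT, or 22.3% ± 0.402 against 7.18% ± 0.339 (3.10-fold). The median number of edits on an edited read was 2.50, 2.46 and 2.47 against 1.89, 1.92 and 1.86, or 2.48 ± 0.0176 against 1.89 ± 0.0336 (1.31-fold). The libraries of the 2 groups did not overlap in either measure. For the 3 library medians the two-sided exact permutation p was 0.10, below which 3 against 3 libraries cannot go (adjusted p = 0.10 over 14 tests of library values). Limma called all 1006 entries higher and 0 lower in each part, a background of 100% and 0%, and 0 were lower at an unadjusted p under 0.05. Of the mean log2 fold of 2.05 in editing, 1.64 came from the share of reads edited and 0.41 from edits per edited read. These are 80.2% and 19.8% of the log2 gain. The larger part of the gain was thus that more reads carried an edit.

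Edits were bunched on reads in both groups, and more so with the fusion. If the 7 adenosines were edited independently with equal chance, the editing level of an element would fix the number of edits per edited read. The observed number was 1.96 ± 0.0184 (SD, n = 3) times that value with the fusion and 1.78 ± 0.0291 times with ADARcdMUT, as medians over the 8-base elements. For the consensus elements the ratios were 2.15 ± 0.0050 and 1.80 ± 0.0732, and for elements without TGT they were 1.96 and 1.78. The excess was thus largest for the consensus with the fusion among the classes compared, and about the same in every class with ADARcdMUT alone. The labels mention no molecular identifiers, so reads may be PCR copies.

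**Figure D1:**
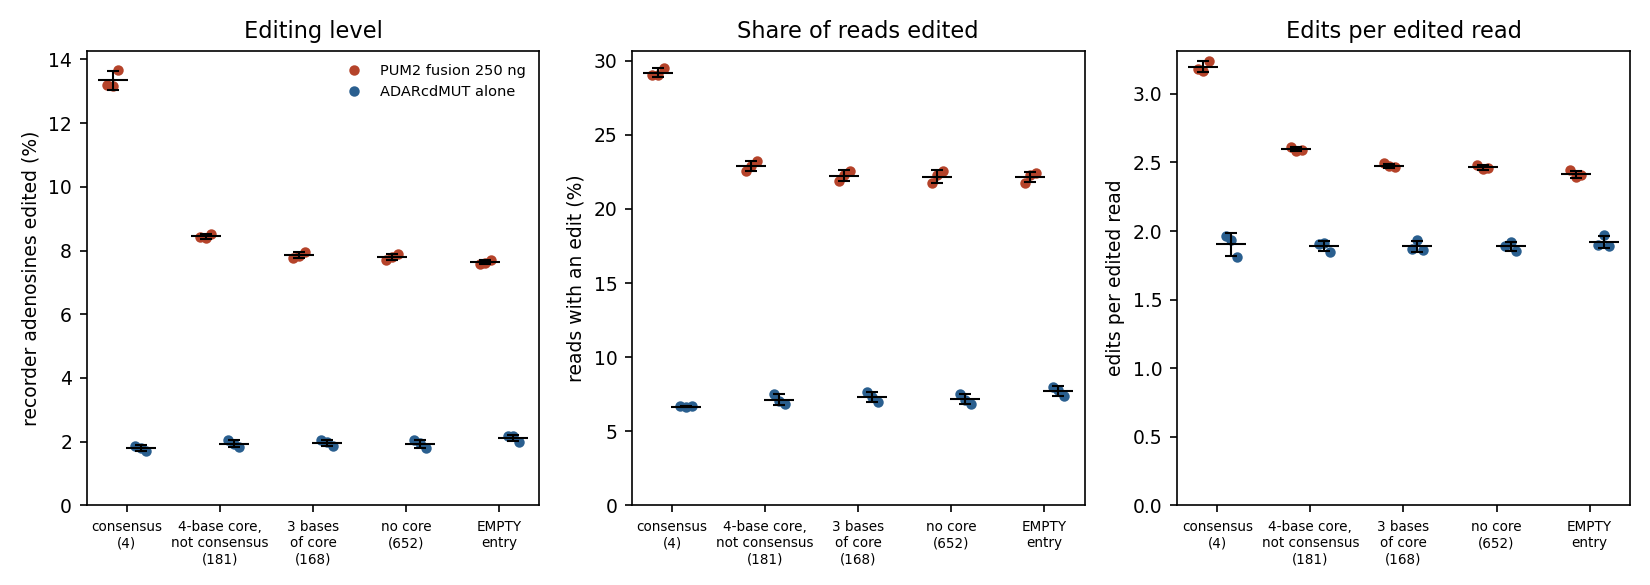
Editing level (percent of recorder adenosines), share of reads with an edit (percent) and edits per edited read, by class of element; each point is the class median in 1 library, and bars show the mean ± SD of 3 libraries. The core is TGTA and 3 bases of it are TGT. The consensus stands apart in all 3 panels with the fusion (13.3% editing, 29.2% of reads edited, 3.20 edits per edited read), while the classes lie close together with ADARcdMUT alone.

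The consensus elements gained most. Their median editing level was 13.2%, 13.2% and 13.7% with the fusion and 1.88%, 1.81% and 1.70% with ADARcdMUT, a gain of 11.5 percentage points (7.42-fold). Elements without TGT went from 1.94% ± 0.124 to 7.80% ± 0.0961, a gain of 5.86 points. In the share of reads edited the consensus stood at 29.2% ± 0.287 against 6.67% ± 0.0338 (4.38-fold), and elements without TGT at 22.2% ± 0.414 against 7.16% ± 0.336 (3.10-fold). In edits per edited read the consensus stood at 3.20 ± 0.0383 against 1.90 ± 0.0827 (1.68-fold), and elements without TGT at 2.46 ± 0.0168 against 1.89 ± 0.0335 (1.30-fold). The consensus thus exceeded the other elements in both parts. Of its mean log2 fold of 2.88, edits per edited read gave 25.6%, against 19.2% for elements without TGT. Of the 0.86 by which its log2 fold exceeded theirs, 0.51 came from the share of reads and 0.35 from edits per edited read, or 59.2% and 40.8%. Edits per edited read therefore made up a larger percent of the consensus excess than of the gain common to the library (40.8% against 19.8%), a difference that was not tested.

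Within each library, the preference for the consensus is the median of its 4 elements minus the median of elements without TGT. In log2 odds of a read being edited, it was 0.56, 0.51 and 0.53 with the fusion and -0.19, -0.10 and -0.04 with ADARcdMUT, a difference of 0.64. In log2 edits per edited read it was 0.36, 0.37 and 0.40 against 0.06, 0.01 and -0.04, a difference of 0.37. Neither measure overlapped between the groups (by two-sided exact permutation p = 0.10 for each, the smallest possible, adjusted p = 0.10). At 25 ng the fusion had preferences of 0.47 ± 0.06 (SD, n = 3) and 0.35 ± 0.02, and without induction -0.05 ± 0.06 and 0.04 ± 0.04. The preference thus appeared in both parts of the measure at either amount of fusion, and the non-induced fusion was near 0. With ADARcdMUT the preference in the share was below 0 in every library, so part of the difference of 0.64 lay on that side. In log2 odds of editing the preference was -0.11 ± 0.02 with ADARcdMUT and 0.86 ± 0.02 with the fusion, a difference of 0.98.

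Among the 4 consensus elements, the one with G at the free position 5 stood lowest with the fusion. Differences among the 4 were not tested. TGTAtATA reached 13.9%, 13.5% and 14.2% with the fusion, from 1.37%, 1.69% and 1.75% with ADARcdMUT (8.66-fold). In the first fusion library it had 11188 reads, of which 3380 were edited with 10906 edits in all, and in the first ADARcdMUT library 4534 reads, of which 239 were edited with 435 edits. TGTAcATA reached 13.5%, 13.0% and 13.8%, from 1.93%, 1.51% and 1.64% (7.93-fold). TGTAaATA reached 12.9%, 13.3% and 13.6%, from 1.82%, 2.10% and 1.66% (7.13-fold). TGTAgATA reached 11.7%, 11.3% and 11.4%, from 2.06%, 1.93% and 1.84% (5.91-fold). The fusion libraries of the first 3 overlapped one another, and those of TGTAgATA lay below all of them. The ADARcdMUT values of the 4 elements overlapped.

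Because the whole library rose, elements were also compared after subtracting each library's median, so that a value of 0 means a gain like that of the median element. Changes on this scale are given in log2 odds of editing unless another measure is named. TGTAtATA was higher by 1.20 (SE 0.12, limma adjusted p = 9.05e-06), TGTAcATA by 1.07 (SE 0.08, adjusted p = 4.20e-07), TGTAaATA by 0.91 (SE 0.10, adjusted p = 1.06e-05) and TGTAgATA by 0.60 (SE 0.06, adjusted p = 7.84e-06). In the share of reads edited the 4 were higher by 0.79, 0.72, 0.63 and 0.45 in the same order, and in log2 edits per edited read by 0.48, 0.40, 0.33 and 0.19. All 4 passed in both parts, and the order of the 4 was the same in each.

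Relative to the library median, 104 entries were higher and 44 lower in editing level, a background of 10.3% and 4.37% of the 1006 tested. In the share of reads edited 75 were higher and 39 lower (7.46% and 3.88%), and in edits per edited read 62 were higher and 10 lower (6.16% and 0.994%). Of these, 42 were higher in both parts, which is 56% of the share calls and 67.7% of the edits-per-read calls, and 33 of the 42 held TGTA outside the consensus. A further 33 entries passed only for the share and 20 only for edits per edited read. The counts rested in part on single libraries. Without fusion replicate 1 or 3 the editing level gave 68 and 69 higher entries, and without fusion replicate 1, 2 or 3 it gave 14, 16 and 12 lower. The share of reads gave 44, 49 and 49 higher and 10, 16 and 14 lower without fusion replicate 1, 2 or 3. Edits per edited read gave 33, 32 and 26 higher and 0 lower in each case (36, 33 and 36 lower in limma at an unadjusted p under 0.05). It gave 18, 21 and 16 lower without ADARcdMUT replicate 1, 2 or 3. The consensus elements stayed higher when any 1 library was left out.

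**Figure D2:**
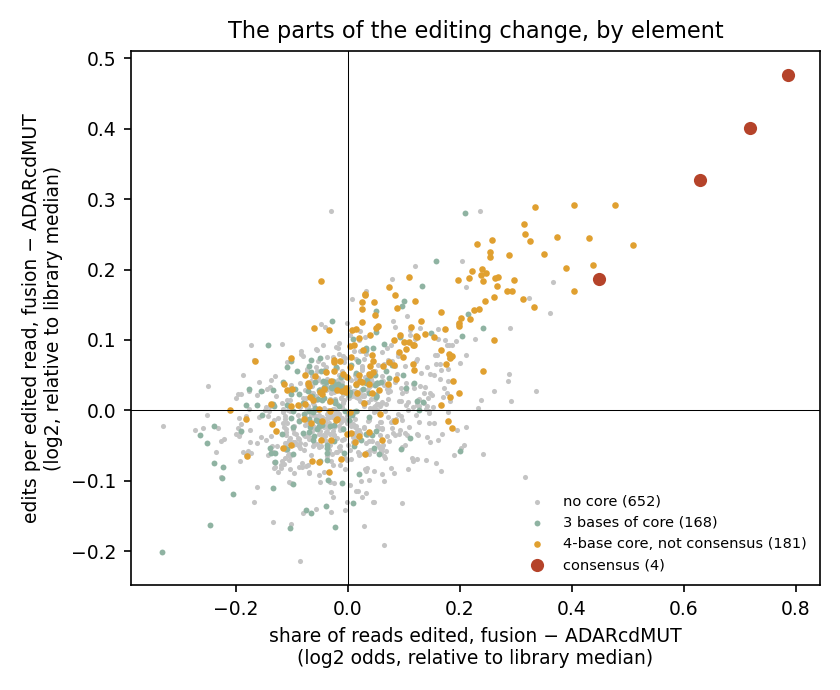
Each point is 1 of the 1005 elements; the x axis is the change in the share of reads edited (log2 odds) and the y axis the change in edits per edited read (log2), fusion minus ADARcdMUT, each relative to the library median. The consensus elements lie at the upper right, from 0.45 to 0.79 on x and 0.19 to 0.48 on y, and most elements without the core lie around 0.

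The 6 substituted elements that gained most kept the core, positions 1 to 4, and the A at position 6. TGTAcAgg reached 11.2%, 11.1% and 11.3%, from 1.69%, 1.79% and 1.70% (relative change 0.74, limma adjusted p = 1.67e-06). Its relative change was above that of TGTAgATA, whereas its fusion level was below that of TGTAgATA in each replicate. In relative change TGTAtATt followed at 0.71, TGTAcAgt at 0.67, TGTAaATt at 0.65, TGTAcATt at 0.61 and TGTAtAgA at 0.60. All 6 lay between 10.5% and 12.3% in every fusion library and at most at 2.34% in every ADARcdMUT library. They differed from the consensus at position 7, position 8 or both. In edits per edited read 5 of the 6 passed in limma, by 0.24 to 0.29, and TGTAcATt did not (0.21, adjusted p = 0.0954). The background for a higher call in that measure was 6.16%. The 6 were chosen by their relative editing, of which edits per edited read is a part. Their levels and this count are therefore a description and no separate result.

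The single substitutions show at which positions a changed base went with less added editing. There were 12 at each fixed position. At position 8 the median relative change was 0.44 and 10 of 12 were higher, and their median fusion level was 10.3% ± 0.234. At position 4 the values were 0.30 and 9 of 12 (9.37% ± 0.162), at position 7 0.28 and 7 (9.14% ± 0.191), and at position 6 0.26 and 7 (9.55% ± 0.0765). At position 2 they were 0.16 and 3 (8.66% ± 0.263), at position 3 0.07 and 2 (8.14% ± 0.0620), and at position 1 0.07 and 4 (8.31% ± 0.221). At position 3 alone 1 element was lower. With ADARcdMUT the medians of the 7 positions lay between 1.85% and 2.01%. The counts for positions 4, 7 and 8 stayed at 7 to 9, 7 to 9 and 10 when any 1 library was left out, and those for positions 1 and 3 went as low as 0. The background for a higher call was 10.3%.

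Measured within each library as the median of the 12 elements minus the median of the consensus, the loss in log2 odds with the fusion was -0.80 ± 0.03 (SD, n = 3) at position 3, -0.76 ± 0.05 at position 1, -0.70 ± 0.05 at position 2, -0.61 ± 0.04 at position 7, -0.57 ± 0.02 at position 4, -0.54 ± 0.03 at position 6 and -0.42 ± 0.0037 at position 8. With ADARcdMUT the same contrasts were 0.04 to 0.16, on the other side of 0. Fusion and ADARcdMUT libraries did not overlap at any of the 7 positions (two-sided exact permutation p = 0.10 each, the smallest possible, adjusted p = 0.10). In the order of the fusion values, position 8 lay clear of the next, positions 6, 4 and 7 overlapped their neighbours, and positions 2, 1 and 3 overlapped theirs. Positions 1 to 3 had the largest losses. At 25 ng of the fusion the losses ran from -0.45 ± 0.03 at position 8 to -0.74 ± 0.04 at position 3.

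**Figure D3:**
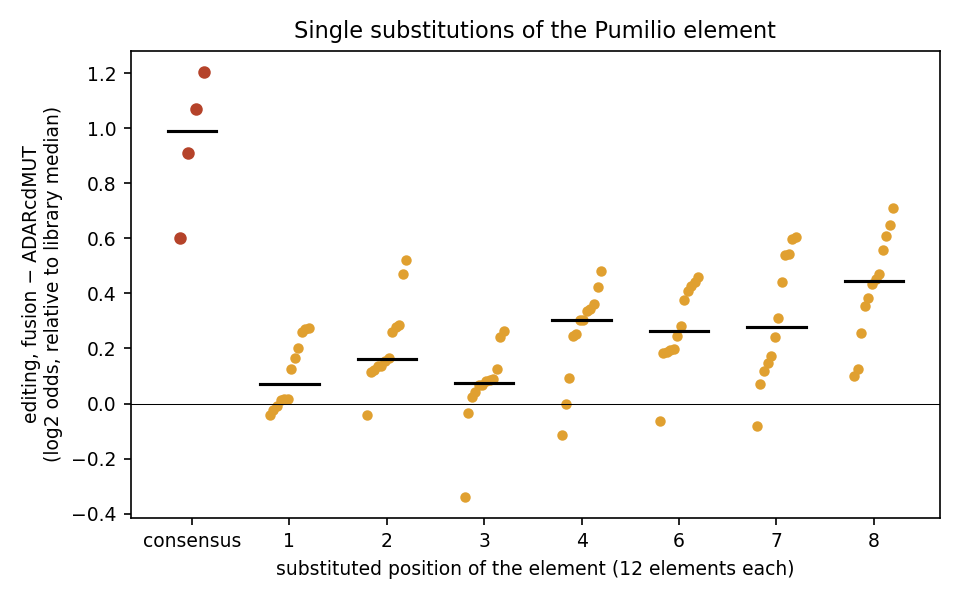
Change in editing (log2 odds, fusion minus ADARcdMUT, relative to the library median) for the 4 consensus elements and for the 12 single substitutions at each fixed position; points are elements and bars are medians. Substitutions at position 8 kept the most (median 0.44) and those at positions 1 and 3 the least (0.07 each).

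Within a position the values differed by the replacing base. At position 8, A8T had a mean relative change of 0.56 over the 4 bases of position 5, and all 4 elements were higher. A8G was at 0.38 and A8C at 0.34, with 3 of 4 each. At position 7, T7A was at 0.46 with 4 of 4 and T7G at 0.40 with 3, while T7C was at 0.06 with 0. At position 2, G2A was at 0.35 with 2, against 0.17 for G2T with 0 and 0.13 for G2C with 1. The highest element of that position, and of all elements without TGT, was TaTAcATA (G2A) at 0.52, with 9.68%, 10.2% and 10.1% against 1.72%, 1.99% and 1.59%. At position 6, A6G was at 0.36 with 3, A6T at 0.30 with 2 and A6C at 0.18 with 2. The 3 changes of position 4 were alike, at 0.24 to 0.27 with 3 of 4 higher each. At position 1, T1A was at 0.17 with 2, T1C at 0.11 with 2 and T1G at 0.04 with 0. At position 3, T3A and T3C were both at 0.12 with 1 each, and T3G was at -0.06 with 0 higher and 1 lower. These are means of 4 elements that differ at position 5, and differences between replacement bases were not tested.

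Substituted elements also differed by the base at position 5, in a split made after the values were seen. Of the 21 single substitutions with G at position 5, 2 were higher and the median was 0.07. With A, C and T the counts were 12, 16 and 12 of 21, with medians of 0.24, 0.30 and 0.28. Among the 36 elements with both positions 7 and 8 changed, the counts were 0 of 9 with G and 6, 7 and 5 of 9 with A, C and T. The background for a higher call was 10.3%, so the count of single substitutions with G was near it. Elements with G at position 5 were thus the lowest of the 4 bases in the consensus, in the single substitutions and in these double substitutions.

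Of the 21 pairs of fixed positions, 1 pair kept a gain when both bases were changed. For positions 7 and 8 the median relative change was 0.21, and 18 of 36 elements were higher and 0 lower. Leaving out 1 library gave 10 to 18 (10 without fusion replicate 1). The other 20 pairs, 720 elements, had medians from -0.06 to 0.06, with 33 higher and 29 lower and at most 4 of 36 higher in a pair. The background was 10.3% higher and 4.37% lower, so the other pairs held no excess of calls. Of those 33, 18 held TGTA, and the other 15 were among the 624 double substitutions without it. Within the pair of 7 and 8, T7G had 0.46 with A8T and 0.41 with A8G, each with 3 of 4 higher, whereas T7A had 0.30 with A8T and 0.09 with A8G (0 of 4), and T7C had 0.26 and 0.06 (0 of 4). These are means of 4 elements, and the interaction was not tested.

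The core was compared at other registers of the 8 bases. Outside the consensus, 181 elements held TGTA, of which 65 were higher and 1 lower, with a median change of 0.15 against 0.01 over all 8-base elements. Their editing level was 8.45% ± 0.0724 with the fusion and 1.94% ± 0.121 with ADARcdMUT. In the share of reads edited 46 were higher and 2 lower, and in edits per edited read 45 were higher and 0 lower. The background was 10.3% higher and 4.37% lower in editing level, 7.46% and 3.88% in the share, and 6.16% and 0.994% in edits per edited read. Leaving out 1 library gave 47 to 71 higher in editing level and 18 to 50 in edits per edited read, the lowest of them without a fusion library. Of the 36 single substitutions with the core at position 1, 24 were higher (median 0.37), and of the 108 double substitutions with it there, 21 were higher and 1 lower (median 0.07). Of those 21, 18 had positions 7 and 8 changed. The pair of 6 and 7 gave 1 of 36 higher and the pair of 6 and 8 gave 2 of 36, although all of these keep the core.

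With the core starting at positions 2 to 5 there were 32 elements, of which 20 were higher and 0 lower, with a median of 0.25. The background was 10.3% higher and 4.37% lower. The 32 elements had a median share of reads edited of 24.0% with the fusion. Their editing level was 9.32% ± 0.230 with the fusion and 1.98% ± 0.0988 with ADARcdMUT. By start the counts were 2 of 3, 9 of 13, 2 of 4 and 7 of 12, and the medians 0.47, 0.27, 0.23 and 0.21. The highest of each start were tcTGTAta (0.57, limma adjusted p = 1.23e-05), aTGTAtag (0.49), ggtaTGTA (0.49) and aaaTGTAt (0.36). The first reached 10.5%, 10.6% and 10.9%, from 2.08%, 1.88% and 1.56%. Of these 32 elements 24 count as double substitutions by design. Among double substitutions, 15 of these 24 were higher and 0 lower, against 15 higher and 28 lower of 624 without any TGTA. The bases that flank an element in the reporter were not used here.

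Taken as whole lists, elements without the core showed little change relative to the median. Of 168 elements that hold TGT without a following A, 9 were higher and 14 lower (median -0.01). Of 652 without TGT, 26 were higher and 28 lower (median -0.00). The background was 10.3% higher and 4.37% lower. Without fusion replicate 1, 2 or 3 the first list had 7, 8 and 6 higher and 7, 8 and 7 lower, and the second 10, 9 and 6 higher and 7, 8 and 5 lower. Without ADARcdMUT replicate 2 the first had 9 lower, and without ADARcdMUT replicate 3 the second had 40 higher and 40 lower. With all libraries, the counts in edits per edited read were 7 higher and 3 lower of the 168, and 6 higher and 7 lower of the 652. Single substitutions were an exception within these lists. Of the 48 that lost the core at position 1, 18 were higher and 1 lower in relative editing (median 0.14), and 1 of the 48 holds TGTA at a later start. Leaving out 1 library gave 9 to 18 higher. At position 4, which is part of the core, 9 of 12 were higher. In absolute terms elements without TGT still gained 5.86 percentage points of editing, and EMPTY, an entry whose content the sources do not describe, had 7.59%, 7.60% and 7.71% against 2.17%, 2.19% and 1.99% (3.61-fold). EMPTY was below the median element by 0.17 (SE 0.05, limma adjusted p = 0.0236), a call lost without any 1 fusion library, without ADARcdMUT replicate 2 and in the fit of only the 6 libraries (adjusted p up to 0.10). The gain over the free domain was thus shared by elements with no match to the Pumilio core.

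The elements that gained least were ordinary with the fusion and high with ADARcdMUT. They were chosen by the difference between the groups, which favours high ADARcdMUT values, so their levels are a description and no separate result. The lowest, atatgtgt, had 7.68%, 7.82% and 7.77% with the fusion and 3.24%, 2.67% and 2.32% with ADARcdMUT, a 2.83-fold gain and a relative change of -0.52 (SE 0.09, limma adjusted p = 0.000749). It was followed by atTgatgt at -0.41 (adjusted p = 0.000578), TGgAtATA at -0.34 (adjusted p = 0.0104), atacgtgt at -0.31 (adjusted p = 0.0351) and TagAgATA at -0.31 (adjusted p = 0.0274). The call of TGgAtATA was lost without fusion replicate 3 (adjusted p = 0.0543). Those of atacgtgt and TagAgATA were lost without any 1 fusion library and without 2 of the 3 ADARcdMUT libraries (replicates 2 and 3, and replicates 1 and 2). Both were also lost in the fit of only the 6 libraries, and that of atacgtgt with the replicate block and in the quasi-binomial model, so they were lost in 8 and 6 of 14 other settings, with adjusted p up to 0.139 and 0.110. Their mean fusion levels of 7.76% to 8.08% were near the library median of 7.87%, and their mean ADARcdMUT levels of 2.43% to 2.74% were above the median of 1.95%. TGgAtATA differs from the strongest element only by T3G, and its fall lay in the share of reads edited (-0.33) rather than in edits per edited read (-0.02). The reversed family, to which 3 of the 5 belong, had 2 higher and 10 lower of 88 with a median of -0.07, beside a background of 10.3% higher and 4.37% lower. The 10 became 5, 4 and 3 without fusion replicate 1, 2 or 3, and 8 to 13 without an ADARcdMUT library. In edits per edited read the 3 lowest were atatgtgt at -0.20, ATACATTT at -0.19 and TATAACTA at -0.16, and these calls rest on the count of 10 that fell to 0 without any 1 fusion library.

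Elements differed reproducibly among themselves with the fusion and much less so with ADARcdMUT. The SD of editing over the 1005 elements was 0.731 to 0.800 percentage points in the fusion libraries and 0.169 to 0.263 in the ADARcdMUT libraries. These SDs are not scaled to the level, which was 4.05-fold higher with the fusion. Across elements, which are not independent replicates, fusion replicates correlated with r of 0.936 to 0.950 and ADARcdMUT replicates with 0.225 to 0.309. The mean level with the fusion and that with ADARcdMUT correlated with r = 0.0253 (rho 0.120). The measured order of elements with the fusion thus had little relation to that with the free domain. The weak agreement among ADARcdMUT replicates limits how high such a correlation can be. The ADARcdMUT libraries held 829224 to 889149 edited reads each, against 3289119 to 5512715 with the fusion. The part of this difference in the replicate correlations was not tested.

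The number of reads per element also differed between the groups. In edgeR 319 entries were more and 350 less abundant with the fusion, a background of 31.7% and 34.8% of the 1006 tested. Changes followed base composition. Elements of only A and T had a median log2 fold of 0.20, and those with 4 to 8 G or C bases -0.29, and across elements the change correlated with the number of G and C bases with r = -0.544 (rho -0.537). The largest increases were ATTATATA at 0.83, TTTATATA and TTTATATT at 0.82, TATATATT at 0.79 and ACTATATA at 0.77. The largest decreases were CGGATGAT at -0.82, TGTCCCCC at -0.71, CCCCAAAA at -0.66, GGTAGATG at -0.64 and GGTAGATC at -0.61. The 5 increases have at most 1 G or C base each and the 5 decreases at least 4. Replicates of 1 group differed along the same direction. The first principal component of the abundances in the 12 libraries held 83.8% of the variance, with scores of 0.124, 0.0892 and 0.233 for the fusion libraries and -0.194, -0.138 and -0.0622 for the ADARcdMUT libraries. The fusion at 25 ng had 0.1015, -0.133 and 0.0216, so its replicate 2 lay within the range of the ADARcdMUT libraries. The non-induced fusion had 0.00614, -0.0506 and 0.00288.

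Among consensus elements, TGTAtATA was more abundant with the fusion (0.53, edgeR adjusted p = 0.0057), as was TGTAcATA (0.33, adjusted p = 0.0046). TGTAaATA (0.06, adjusted p = 0.333) and TGTAgATA (0.04, adjusted p = 0.35) did not pass. The medians over all elements with as many G and C bases were 0.18 for TGTAtATA and TGTAaATA and 0.06 for the other 2. The consensus preference in log2 reads was 0.11, 0.12 and 0.15 with the fusion and -0.00, -0.04 and 0.05 with ADARcdMUT, a difference of 0.13 (by two-sided exact permutation p = 0.10, adjusted p = 0.10). Among elements with at least 5000 reads in all 12 libraries, which leaves TGTAtATA out, the difference was -0.000962. None of the 4 consensus elements was less abundant with the fusion in edgeR. The relative editing change correlated with the abundance change with r = 0.241 and with the number of G and C bases with r = -0.191 across elements, and the part of abundance in the editing change was not tested. Of the strongly gaining elements, TGTAcAgg was less abundant with the fusion (-0.25) and TGTAtATt more (0.48).

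**Figure D4:**
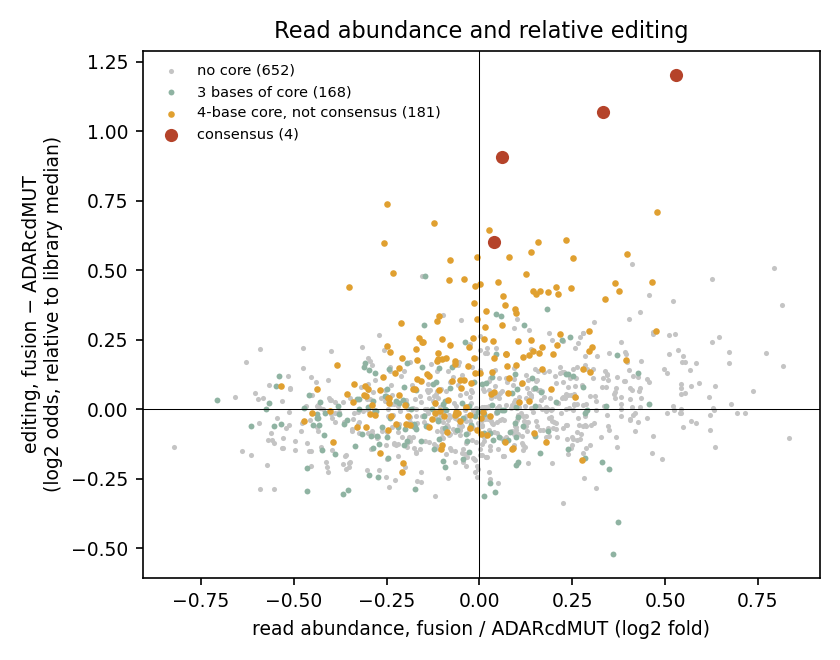
Each point is 1 of the 1005 elements; the x axis is the change in read abundance (log2 fold, fusion over ADARcdMUT) and the y axis the change in editing (log2 odds, relative to the library median). Elements with the core and a high editing change occur on both sides of 0 on the x axis, and the consensus elements lie between 0.04 and 0.53.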

How the data were processed

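The deposited tables of 12 libraries (4 groups of 3 biological replicates, per the series' design) were used, with groups and replicate numbers from the sample titles. The labels' extraction text names zebrafish embryos, while source, cell line and design give HEK293T, which is used here. Per the file headers, the authors deposited counts per element (reads, reads with an edit, edits) and the count of all reads of a library. The deposited percent values (adenosines edited, reads of the library) and the deposited efficiency score were recomputed from the counts within 1e-09, which also gives 7 recorder adenosines per read. The aligner and edit caller were not given in the sources used here. Deposited tables list entries with over 1000 reads, and 16 of 1022 were not listed in all 12 libraries and were left out.

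The value tested was log2((edits + 0.5)/(7 × reads − edits + 0.5)), as such and minus the library median over the 8-base elements. The share of reads edited was handled likewise, and edits per edited read as log2. For these, lmFit and eBayes (with trend) of limma 3.58.1 (R 4.3.3) were used in 1 fit of 12 libraries with the contrast of the 2 groups, and read counts with the quasi-likelihood test of edgeR 4.0.16 (TMM). Benjamini-Hochberg adjustment ran over 1006 entries, with a call at an adjusted p under 0.05. The fits were tested on simulated data. Values of 1 per library were compared by two-sided exact permutation. Intervals of counting error do not cover PCR copies, and replicate spread is used throughout. No replicates were duplicates: their read counts differed 12.8 to 102 times more than sampling noise gives, as chi-squared over its degrees of freedom.

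Elements and lists were chosen with earlier results of these data known. Named elements are the 4 consensus elements and EMPTY, the 10 largest rises and 5 largest falls in relative editing, the 3 largest each way in each part and the 5 in abundance, among called elements whose libraries do not overlap between groups, and the extremes of each position, core start and list. Elements with a fixed change are summarised by substitution. Alternatives were a fit of the 6 libraries, the replicate number as a block, a minimum of 5000 reads, a pseudocount of 5, the arcsine square root, log2 percent, a quasi-binomial model, edits beyond the first, another centring, DESeq2 1.42.0 and no TMM for reads, and each library left out. Counts by list under these were added after seeing the data. Tables and permutation tests used pandas 2.3.3, numpy 2.4.6 and scipy 1.17.1 in Python 3.11.15, and figures matplotlib 3.10.9.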

Additional observations from a re-analysis of the deposited data

How the results depend on the processing

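The 4 consensus elements stayed higher relative to the library median in editing, share of reads and edits per edited read in the settings run, except that TGTAGATA lost its call when only edits beyond the first were counted (limma adjusted p = 0.0899; up to 0.0471 in the others), and that TGTATATA was not tested with a minimum of 5000 reads. Of the alternatives for named elements, called or not, 1070 gave the same result as the main fit, 21 a stronger and 88 a weaker one, and 0 reversed. Relative editing gave 160 higher and 69 lower entries on the arcsine square root scale, and 20 lower when only the 6 libraries entered the fit. That fit gave 19 lower in the share of reads, and 31 higher and 0 lower in edits per edited read (47 lower at an unadjusted p under 0.05 in limma). Counting only edits beyond the first gave 34 higher and 6 lower overall. With 1 library left out in turn, relative editing gave 68 to 127 higher and 12 to 58 lower, the share of reads 44 to 82 and 10 to 52, edits per edited read 26 to 70 and 0 to 21, and abundance 249 to 339 and 271 to 351. The difference between the groups in the consensus preference in reads was -0.000962 with a minimum of 5000 reads, against 0.13 in the main setting. That minimum drops TGTATATA. DESeq2 called 352 entries more and 363 less abundant, and no TMM 374 and 289. Deviations of same-numbered libraries correlated with r of -0.021, -0.054 and -0.045 in editing and 0.409, 0.0588 and 0.668 in read abundance. Not every pair was above 0.1 in either, so the numbers were not taken to pair the libraries. With the replicate number as a block, relative editing gave 100 higher and 35 lower, the share of reads 76 and 35, edits per edited read 55 and 9, and abundance 321 and 345. With 3 libraries a group no comparison of library values can go below a p of 0.10, and element levels with ADARcdMUT alone rest on fewer edits.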

Other observations

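Elements that hold motifs of other RNA-binding proteins or decay signals showed no common relative gain with the fusion. ATTTA is the core of AU-rich decay elements, and 0 of its 15 elements passed in either direction in limma (median -0.04), although 10 of the 15 were more abundant with the fusion (median log2 fold 0.33, edgeR). Of all elements with 0 and 1 G or C bases, 20 of 37 and 92 of 160 were more abundant (medians 0.20 and 0.18). The part of base composition in the ATTTA values was not tested. None of the 4 elements with TTTTT passed (median 0.07), nor did either of the 2 with ACTAA, the core of the STAR protein site (median 0.11). Of the 2 with TGTGTG, 1 was lower, and of the 5 with GCATG, the RBFOX site, 1 was higher. That element, TGCATGTA, also holds TGTA, and had 9.89% ± 0.265 (SD, n = 3) with the fusion and 2.14% ± 0.213 with ADARcdMUT. The background was 10.3% higher and 4.37% lower for relative editing, and 31.7% higher and 34.8% lower for abundance.

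The 37 elements of only A and T, none of which holds TGTA, had 7 higher and 0 lower, with a median relative change of 0.12 against 0.01 over all elements. Their median was 0.10 in the share of reads edited (5 higher) and 0.01 in edits per edited read (2 higher), and 20 were more and 7 less abundant with the fusion. The highest was TATATATT (G2A and A8T) at 0.51, with 8.61%, 8.91% and 9.72% against 1.37%, 2.14% and 1.38%. The 16 elements within 1 mismatch of the reverse complement of the consensus had 3 higher and 1 lower (median 0.06). Among the 14 elements with 3 mismatches to the consensus 0 were higher and 1 lower in limma, and among the 147 with at least 4 mismatches 7 were higher and 12 lower. TGTA was held by 3 of the 16, 5 of the 14 and 7 of the 147. The background was 10.3% higher and 4.37% lower in relative editing. For a higher call it was 7.46% in the share of reads edited and 6.16% in edits per edited read. For abundance it was 31.7% higher and 34.8% lower.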
